A study of Saccharomyces cerevisiae with 142 samples.

Results

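The 100 open reading frames (ORFs) described here were the most variable budding yeast genes that carried only a systematic name, a code for chromosome, arm, position and strand, with no standard gene name. They were chosen by their standard deviation (SD) over the 14 arrays of replicate 1 of wild type 30 C. The candidates were the 505 probe sets named for 1 gene with such a code, from which YGR109W-A, YGR109W-B and YIL082W-A had been set aside, and 451 of them had the required mean log2 intensity of at least 7. The 100 ORFs were set among 5449 measured genes, of which another 396 also had a systematic name only. All 100 matched an entry of the yeast reference table and were annotated there as protein-coding. The values that chose them are given as a description, and no test was made on that course.

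Cells of a synchronous yeast culture start as small G1 cells or from a pheromone arrest, resume growth, pass Start, replicate their DNA and enter mitosis. The factors SBF and MBF drive genes of budding and DNA replication at Start, and mitotic genes such as those of the CLB2 cluster follow later with the forkhead factor Fkh2. Genes of the general stress response are high in stressed or slowly growing cells, and genes of ribosome biogenesis, which build ribosomes, are usually regulated in the opposite direction.

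RNA was measured on 142 Affymetrix arrays in 9 time courses. One course each came from the temperature-sensitive strains BF264-15D MATa bar1 cdc14-3 and BF264-15D MATa bar1 cdc15-2, in a phosphatase and a kinase of mitotic exit, which were arrested with the mating pheromone alpha factor at 25 °C and then let go at 37 °C in rich medium with 2% dextrose. One course came from wild type 37 C (BF264-15DU, mating type a, bar1), small elutriated cells grown at 25 °C and placed in prewarmed rich dextrose medium at 37 °C. Elutriation sorts cells by size. Elutriated G1 cells in rich dextrose medium with 1 M sorbitol at 30 °C gave 2 courses each for the other groups. The cyclin mutant carried disruptions of all B-type cyclin genes (clb1::URA3, clb2::LEU2 and clb3::TRP1, together with clb4::HIS2, clb5::ARG4 and clb6::APE1) with GAL1-CLB1:LEU2, a copy of CLB1 behind a galactose promoter that dextrose shuts off. The cdc20 strain carried cdc20::LEU2 with Pgall-CDC20::ADE2, also behind a galactose promoter, and CFP-TUB1::URA3, and lacks the activator that starts anaphase. Wild type 30 C was BF264-15DU MATa bar1. All strains were of mating type a, and the label of each except the cyclin mutant lists bar1. The 3 courses at 37 °C had no replicate, and nothing in the labels says that the replicate courses of the other groups came from separate cultures, so p-values measure the spread between these arrays or courses, which may be technical. The method of synchrony, the medium, the array series and the RNA work went with group and cannot be told apart from it.

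Array medians lay between 1056 and 1362 intensity units. A course held 14 to 21 arrays. The 3′ minus 5′ difference of TDH1 probe sets, a measure of RNA integrity that is larger in more degraded RNA, averaged 1.00 in cdc14-3, 1.97 in cdc15-2, 1.497 in wild type 37 C, 1.98 and 1.92 in the cyclin mutant, 2.98 and 2.59 in cdc20, and 2.15 and 1.89 in wild type 30 C on the log2 scale. The values of replicate 2 of wild type 30 C were moved up 1 row, because their correlation with replicate 1 across probe sets was 0.0461 as deposited and 0.996 after the move. The move was inferred from the values, and no label states it.

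On the arrays that chose them, the ORFs with the highest SD of log2 intensity were YMR090W at 1.46, YNL195C at 1.43, YMR001C-A at 1.33, YMR196W at 1.32, YMR030W-A at 1.27 and YLR154C-H at 1.26, followed by YNL058C at 1.203, YOR289W at 1.17, YEL076C-A at 1.14, YBR053C at 1.10, YHR138C at 1.09 and YJL118W at 1.06. The last ORFs inside the choice were YPL088W, YGL081W and YNL162W-A with SDs of 0.424, 0.421 and 0.418, and the first outside it were YOR097C, YIL108W and YBR013C with 0.417, 0.411 and 0.408. The same rule applied to replicate 2 would have kept 74 of the 100, which is 74.0% of each list. In replicate 2 the median SD of the 100 was 0.59, against 0.24 over all genes, and 95 of the 100 lay above that median. YLR154C-H stood out here, with an SD of 1.26 in replicate 1 and 0.40 in replicate 2.

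The ORFs were 78 to 3267 bases long, with a median of 918, against 664 for the 396 other ORFs with a systematic name only and 1236 for all genes. Of the 100, 16 were shorter than 300 bases, against 27.3% of those other ORFs and 4.31% of all genes. The shortest was YOR302W, the leader peptide ORF in the mRNA of CPA1, an enzyme subunit of arginine synthesis. Probe sets of 93 ORFs were designed for 1 transcript, and 7 were shared by several: YLR154C-H, which overlaps a 5S ribosomal RNA gene of the ribosomal DNA, YBL005W-A, a Gag ORF of the retrotransposon Ty1, and YEL076C, YEL076C-A, YFL064C, YFL065C and YBL112C. These last 5 lie at chromosome ends beside or in helicase-like ORFs of the subtelomeric Y′ repeats. The signal of these 7 may come from any copy of the repeat.

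Most of the 100 ORFs also changed over time in courses that had no part in the choice. A smooth curve of time (a natural cubic spline with 5 degrees of freedom) was fitted with limma on all genes, and a gene was called when its adjusted p was below 0.05 and its fitted range at least 1 on the log2 scale, a 2-fold range. Called ORFs numbered 62 of 100 in cdc14-3, against 22.8% of all genes; 50 in cdc15-2, against 19.0%; and 78 in wild type 37 C, against 32.6%. They numbered 84 in the cyclin mutant, against 37.5% of all genes; 93 in cdc20, against 56.4%; and 85 in replicate 2 of wild type 30 C, against 35.3%. Of the 396 other ORFs with a systematic name only, the shares called were 17.2%, 15.7%, 23.0%, 23.0%, 54.3% and 24.7% in the same order of groups. These 396 are the ORFs that the choice left out, for a lower SD or a mean intensity below the required minimum. A call needs a fitted range of at least 1, so fewer calls among them may follow in part from the choice itself. In these bulk samples, fewer cells in a state and less RNA per cell cannot be told apart.

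**Figure D1:**
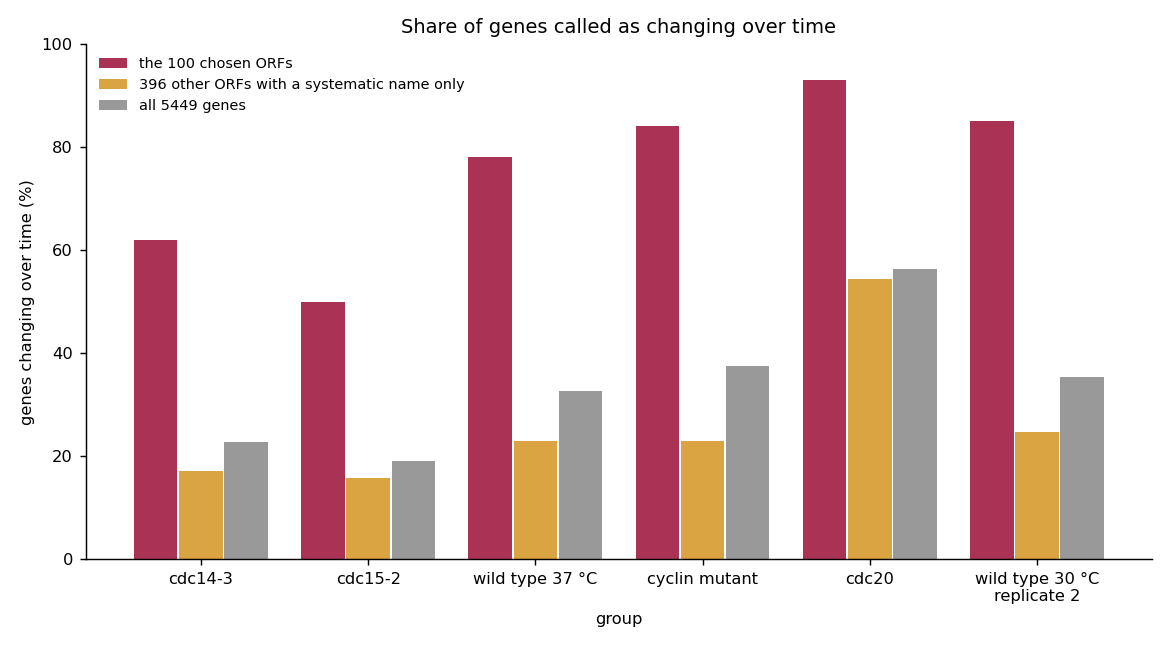
Percent of genes called as changing over time in each group, for the 100 chosen ORFs, the 396 other ORFs with a systematic name only and all 5449 genes. The 100 ORFs reached 50 to 93% and lay above both other sets in each of the 6 groups. The 396 other ORFs were left out of the choice for a lower SD or a lower mean intensity.

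The median fitted range of the 100 was 1.28 in cdc14-3, 1.08 in cdc15-2, 1.57 in wild type 37 C, 1.92 in the cyclin mutant, 2.07 in cdc20 and 2.00 in replicate 2 of wild type 30 C, against 0.58, 0.55, 0.73, 0.81, 1.11 and 0.76 for all genes. Of the 100, 35 were called in all 6 groups and 76 in at least 4, against 8.07% and 24.8% of all genes and 2.02% and 12.4% of the 396 other ORFs. YPL162C was called in none, and YOR302W, YBL086C, YDR524W-C, YOR019W and YGL081W in 1 each. Without the samples before 30 min, the counts were 28 in cdc14-3, when 8.57% of all genes were called, and 22 in cdc15-2, when 6.15% were called.

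To order the ORFs by their course, each was assigned to the list of named genes whose mean profile it followed best on the arrays of replicate 1 of wild type 30 C, by Pearson correlation r of at least 0.7. With 15 lists and 14 arrays per correlation, 97 of the 100 reached that bound. The general stress list took 50, ribosome biogenesis 11, the CLB2 cluster of mitosis 7, SBF targets 6, MBF targets 5, histones 4, galactose genes 4, glucose-repressed genes 4, iron uptake 2 and phosphate starvation 1. YDR034C-A, YNL146C-A and YDR524W-C were near none. The assignment describes a shape in 1 course and no function. The nearest list was the same for 60 ORFs in replicate 2 of wild type 30 C and for 41 to 56 in the courses of the other groups. Of these, 29 and 22 to 43 were near the general stress list.

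**Figure D2:**
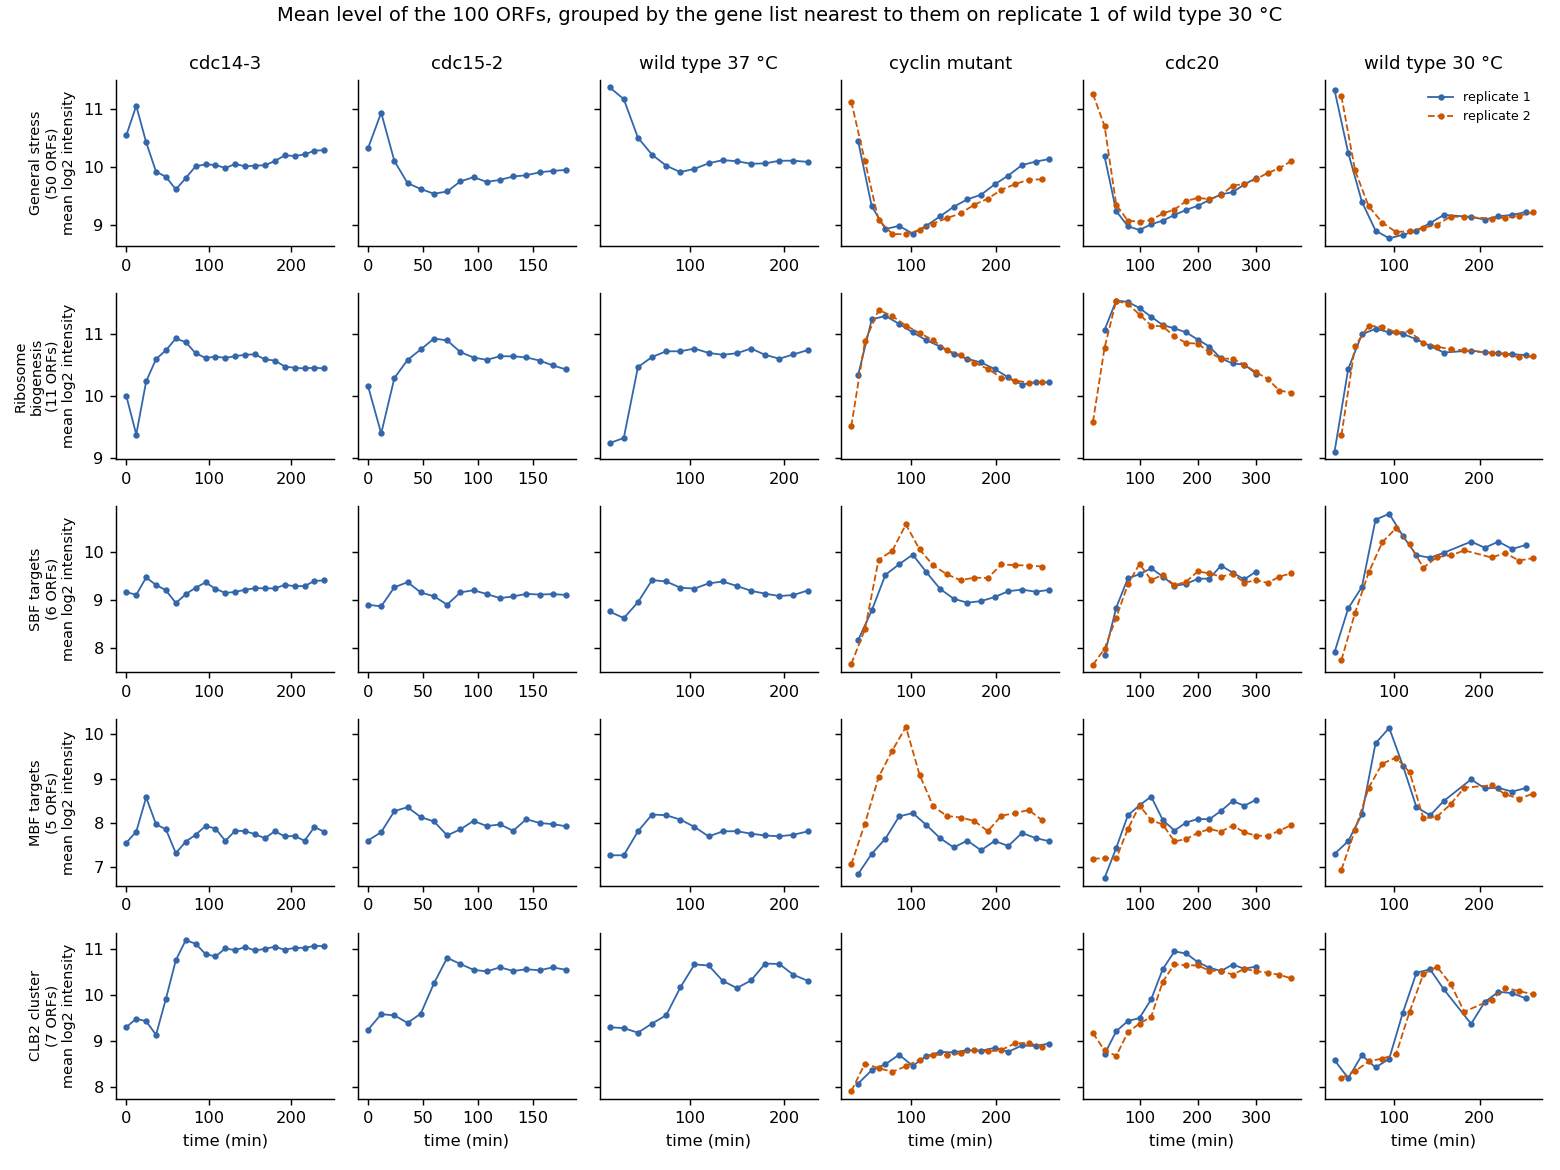
Mean log2 intensity over time in min of the ORFs nearest to 5 gene lists (rows) in the 6 groups (columns), with replicate 1 as a solid blue line and replicate 2 as a dashed orange line. The ORFs near the stress list were high in the first samples of each group, and the mean of those near the CLB2 cluster stayed below 9 in both courses of the cyclin mutant.

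The 50 ORFs near the general stress list were highest at the start of each course. Their average in cdc14-3 was highest at 12 min with 11.05 and lowest at 60 min with 9.62, and in cdc15-2 it was 10.93 at 12 min and 9.54 at 60 min. In wild type 37 C it was highest at 15 min with 11.37 and lowest at 90 min with 9.92. In the cyclin mutant it was highest in the first samples with 10.45 and 11.12 and lowest near 100 min with 8.86 and 8.85. In cdc20 it was 10.18 and 11.25 in the first samples and 8.92 and 9.07 at 100 min, and in replicate 2 of wild type 30 C it was 11.22 at 38 min and 8.89 at 102 min. By the last sample the average stood at 10.14 and 9.79 in the cyclin mutant, 9.81 and 10.10 in cdc20, and 9.22 in wild type 30 C.

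Nearly all called ORFs of these 50 ended below their first fitted value. Those that ended lower numbered 32 in cdc14-3, 23 in cdc15-2, 43 in wild type 37 C, 41 in the cyclin mutant, 42 in cdc20 and 45 in replicate 2 of wild type 30 C. The share of all genes that changed and ended lower was 9.71%, 9.52%, 14.2%, 18.1%, 32.2% and 16.4% in that order. Those that ended higher numbered 2, 0, 0, 6, 5 and 0. Of the 21 named genes of the stress list, 15, 14, 19, 20, 20 and 21 were called and ended lower in the same groups, and 0, 2, 0, 1, 1 and 0 ended higher.

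Several of these ORFs had large ranges in several groups, though not in all. YMR196W, YNL195C and YJR096W were not called in cdc15-2. YMR090W had a lowest, median and highest log2 intensity of 9.11, 9.63 and 13.20 in replicate 2 of the cyclin mutant, of 9.29, 9.70 and 13.30 in replicate 2 of cdc20, and of 8.94, 9.20 and 13.05 in replicate 2 of wild type 30 C. The high value was the first sample in each case, at 30, 20 and 38 min. Its fitted range was 4.58 in the cyclin mutant (limma, adjusted p = 2.91e-13), 4.53 in cdc20 (adjusted p = 4.41e-18) and 4.42 in wild type 30 C (adjusted p = 3.99e-07).

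YMR196W was also highest in its first sample. It spanned 8.10 to 12.41 in replicate 2 of the cyclin mutant and 7.89 to 12.52 in replicate 2 of wild type 30 C, with medians of 8.35 and 8.22. Its fitted range was 4.599 in the cyclin mutant and 4.98 in wild type 30 C (limma, adjusted p = 2.65e-11 and 1.24e-06). The medians lay close to the lowest values, so most samples were low. YNL195C had a late level of 9.05 in wild type 37 C and was 12.997 at 15 min, with a fitted range of 4.05 (adjusted p = 5.13e-09). YNL194C, the ORF beside it, encodes a membrane protein of the Sur7 family and was nearest to the glucose-repressed list. It had a fitted range of 4.10 in wild type 37 C (adjusted p = 6.84e-07), with 6.87 at 210 min and 11.25 at 15 min.

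Oxidoreductases were among the ORFs near the stress list. YJR096W, an aldose reductase, had a fitted range of 4.17 in replicate 2 of wild type 30 C (limma, adjusted p = 1.82e-07), where it was 12.87 at 38 min and 8.82 at 134 min. YML131W, of a medium-chain reductase family, spanned 9.53 to 12.72 in cdc14-3, 9.39 to 12.17 in cdc15-2 and 8.97 to 12.13 in wild type 37 C. Its fitted range was 2.55, 2.52 and 2.96 in those groups (adjusted p = 0.000493, 0.00139 and 9.36e-08), and its highest sample was the first or second in each.

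Some ORFs of these 50 did not follow this course in every group. In cdc14-3, YHR140W spanned 7.77 to 9.84 with its low point at 36 min and its high point in the last sample at 240 min. It ended 1.33 above its first fitted value (limma, adjusted p = 1.27e-06). YJL213W was 7.45 at 0 min and 10.18 at 228 min in cdc14-3 and ended 1.71 higher (adjusted p = 0.0184), while in wild type 37 C it was highest at 15 min with 12.64.

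The 11 ORFs near ribosome biogenesis had the opposite start in most courses, though not in all. Their average was lowest at 12 min in cdc14-3 and cdc15-2, with 9.38 and 9.40, and highest at 60 min in both, with 10.93. In wild type 37 C it was lowest at 15 min with 9.24. In the cyclin mutant it was 11.30 and 11.40 at its highest, at 70 and 62 min. It was 10.34 and 9.52 in the first samples of the cyclin mutant and 10.22 and 10.23 in the last. Replicate 1 of the cyclin mutant was lowest at 230 min with 10.19. In cdc20 the average was 11.07 and 9.59 in the first sample, 11.55 in both courses at 60 min, and 10.37 and 10.06 in the last sample. Replicate 1 of cdc20 thus started high and was lowest in its last sample. In replicate 2 of wild type 30 C the average was 9.37 at 38 min, 11.14 at 70 min and 10.65 in the last sample.

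Called ORFs of these 11 all ended higher in cdc14-3 (8), cdc15-2 (7), wild type 37 C (10) and replicate 2 of wild type 30 C (10). In the cyclin mutant 7 ended higher and 2 lower, and in cdc20 5 ended higher and 6 lower. Of the 34 named genes of the list, 26 ended higher and 0 lower in cdc14-3, and 12 and 0 in cdc15-2. In wild type 37 C 33 ended higher and 0 lower, in the cyclin mutant 20 and 12, in cdc20 8 and 25, and in replicate 2 of wild type 30 C 32 and 0. In the same order of groups, 13.1%, 9.49%, 18.4%, 19.5%, 24.3% and 19.0% of all genes were called and ended higher, and 9.71%, 9.52%, 14.2%, 18.1%, 32.2% and 16.4% ended lower.

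YGR079W was 8.79 at 12 min and 11.57 at 60 min in cdc14-3, and 8.46 and 11.45 at the same times in cdc15-2. Its fitted range was 3.04 in cdc14-3 and 2.42 in cdc15-2 (limma, adjusted p = 3.44e-07 and 0.00453), and 0.40 and 0.48 without the samples before 30 min, which ends both calls. YOR342C had a fitted range of 4.10 in cdc20 (adjusted p = 2.14e-17), where replicate 2 spanned 7.72 at 20 min to 11.89 at 80 min. YML108W, YCR087C-A and YBL028C followed each other closely over the arrays of the 8 courses that did not choose them, after each course was centred on its mean, with r between 0.933 and 0.940 per pair. Those arrays share their courses and time trend, so these correlations describe and carry no test. YOR302W, which is assigned to this list at r = 0.746, was called in cdc20 alone, with a fitted range of 1.17.

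The 11 ORFs near SBF and MBF targets include the 5 subtelomeric ORFs. The average of the 6 near SBF targets was highest at 102 and 94 min in the cyclin mutant, with 9.95 and 10.58, and at 102 min in replicate 2 of wild type 30 C, with 10.50. It was lowest in the first sample of those courses, with 8.17 and 7.68 in the cyclin mutant and 7.76 in wild type 30 C. All 6 were called and ended higher in the cyclin mutant and in cdc20, 5 in replicate 2 of wild type 30 C, 4 in wild type 37 C, and 3 each in cdc14-3 and cdc15-2. In wild type 37 C 1 more was called and ended lower. The shares of all genes that changed and ended higher were 13.1% in cdc14-3, 9.49% in cdc15-2, 18.4% in wild type 37 C, 19.5% in the cyclin mutant, 24.3% in cdc20 and 19.0% in wild type 30 C.

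YBR071W had the largest fitted range of the 100 in the cyclin mutant, 4.92 (limma, adjusted p = 1.35e-13). It was 7.09 at 38 min and 10.66 at 262 min in replicate 1, and 6.48 at 30 min and 11.07 at 254 min in replicate 2, so the highest sample was the last in both. In wild type 30 C, replicate 2, it was highest at 102 min with 10.74 and its late level was 9.93. In cdc14-3 and cdc15-2 it was highest at 24 and 36 min, with 12.42 and 11.76. YDL241W was 7.95 at 30 min and 12.01 at 158 min in replicate 2 of the cyclin mutant and 6.83 at 38 min and 10.75 at 182 min in replicate 2 of wild type 30 C. Its fitted range was 3.89 in the cyclin mutant and 4.03 in wild type 30 C (adjusted p = 1.62e-17 and 5.54e-08).

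Of the 5 ORFs near MBF targets, YDL211C, YEL076C, YEL076C-A, YFL064C and YGR153W, all 5 were called in the cyclin mutant and in replicate 2 of wild type 30 C, 4 in cdc20, 3 each in wild type 37 C and cdc15-2, and 1 in cdc14-3. All of these calls ended higher. Of all genes, 19.5% were called and ended higher in the cyclin mutant, 19.0% in replicate 2 of wild type 30 C and 24.3% in cdc20. These shares were 18.4% in wild type 37 C, 9.49% in cdc15-2 and 13.1% in cdc14-3. YGR153W, called in cdc14-3, was 8.55 at 0 min and 10.22 at 36 min there. YEL076C, YEL076C-A and YFL064C are on probe sets shared by several transcripts, so their calls may not be separate. In cdc14-3 their r with the MBF list was -0.029, 0.089 and 0.525, against 0.926 for YDL211C and 0.86 for YGR153W.

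The 7 ORFs near the CLB2 cluster were YMR001C-A, YNL058C, YBR138C, YMR030W-A, YLL032C, YLR179C and YML119W. Their average was highest at 72 min in cdc14-3 with 11.19 and in cdc15-2 with 10.81, and in the last sample it was 11.06 and 10.55. In wild type 37 C it was highest at 180 min with 10.68. It was never above 8.95 and 8.96 in the courses of the cyclin mutant. In cdc20 it was highest at 160 min with 10.94 and 10.67, and in replicate 2 of wild type 30 C it was highest at 150 min with 10.61. Called ORFs numbered 6 in cdc14-3, 5 in cdc15-2, 5 in wild type 37 C, 4 in the cyclin mutant, 7 in cdc20 and 6 in replicate 2 of wild type 30 C, and each of them ended higher. Of all genes, 13.1%, 9.49%, 18.4%, 19.5%, 24.3% and 19.0% were called and ended higher, in the same order of groups. Of the 18 measured named genes of the cluster, 18, 16, 17, 12, 16 and 16 were called and ended higher in those groups, and 2 ended lower, both in cdc15-2.

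YMR030W-A, an ORF beside HOF1, had a lowest, median and highest value of 7.06, 10.87 and 11.27 in cdc14-3, of 8.40, 10.51 and 11.01 in cdc15-2 and of 8.66, 10.35 and 11.17 in wild type 37 C. In the cyclin mutant these values were 6.73, 7.16 and 7.58 in replicate 1 and 6.57, 7.05 and 7.55 in replicate 2. In cdc20 they were 8.18, 10.35 and 11.30, and 7.90, 10.49 and 11.05, and in replicate 2 of wild type 30 C they were 7.14, 9.22 and 10.69. Both courses of the cyclin mutant thus lay below the median of every other course at all times. Its fitted range was 4.17 in cdc14-3 and 2.60 in cdc15-2 (limma, adjusted p = 1.73e-06 and 9.02e-06), and it was not called in the cyclin mutant.

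YNL058C reached 12.98 in cdc14-3, 12.38 in cdc15-2, 12.24 in wild type 37 C, 9.04 and 9.36 in the cyclin mutant, 12.48 and 12.36 in cdc20, and 11.55 in replicate 2 of wild type 30 C. Its fitted range in cdc20 was 4.07 (limma, adjusted p = 8.75e-20) with the low point in the first samples. YMR001C-A, an ORF beside CDC5, was called in all 6 groups, with fitted ranges of 2.13 to 3.53. It did change in the cyclin mutant, with values of 6.53 at 38 min and 8.54 at 182 min in replicate 1 and 6.13 at 46 min and 8.82 at 174 min in replicate 2 and a fitted range of 2.43.

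YNL046W and YLR285C-A were called in both wild types and in no mutant. YNL046W spanned 9.01 to 9.45 in cdc14-3, 9.79 to 10.72 in cdc15-2, 9.55 to 11.01 in wild type 37 C, 9.06 to 9.41 and 8.82 to 9.54 in the cyclin mutant, 9.17 to 9.82 and 9.12 to 10.01 in cdc20, and 9.03 to 11.64 in replicate 2 of wild type 30 C. Its fitted range was 1.28 in wild type 37 C and 2.51 in wild type 30 C (limma, adjusted p = 3.19e-05 and 8.85e-06). That of YLR285C-A was 1.21 and 1.96 in the same groups (adjusted p = 6.96e-06 and 4.5e-05). The difference in change over time between mutants and wild types was not tested. The share of all genes with this pattern of calls is not given here. A missing call can also come from the required fitted range of at least 1.

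Among the remaining ORFs, YJL118W, assigned to the histone list at r = 0.947, had the largest fitted range of the 100 in cdc20, 4.76 (limma, adjusted p = 2.47e-16). It was 6.81 at 40 min and 10.57 at 140 min in replicate 1 of cdc20 and 5.90 at 20 min and 11.11 at 140 min in replicate 2. In all 6 groups it was called and ended higher. The r of 0.947 is from the course that chose the ORFs. In the courses of cdc20, the r of YJL118W with the histone list was -0.108 and 0.055. The CLB2 cluster was its nearest list in both. YDR222W, near the galactose list, had a fitted range of 2.59 in wild type 37 C (adjusted p = 1.03e-05), from 10.19 at 15 min to 12.61 at 75 min. YNR014W, near the stress list, had the largest fitted range of the 100 in cdc15-2, 3.72 (adjusted p = 0.000185), from 8.70 at 36 min to 12.03 at 0 min.

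The late level of each ORF, the mean of a course from 100 min to its end, was compared between groups with limma on 1 value per course, and called at an adjusted p below 0.05 over all genes. Replicate 1 of wild type 30 C was left out because it chose the ORFs, so 8 courses and 2 residual degrees of freedom remained, and the groups with a single course are assumed to vary like the cyclin mutant and cdc20. The comparisons with wild type 30 C share its 1 course, and those with wild type 37 C share its 1 course. Their differences are given side by side for that reason.

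**Figure D3:**
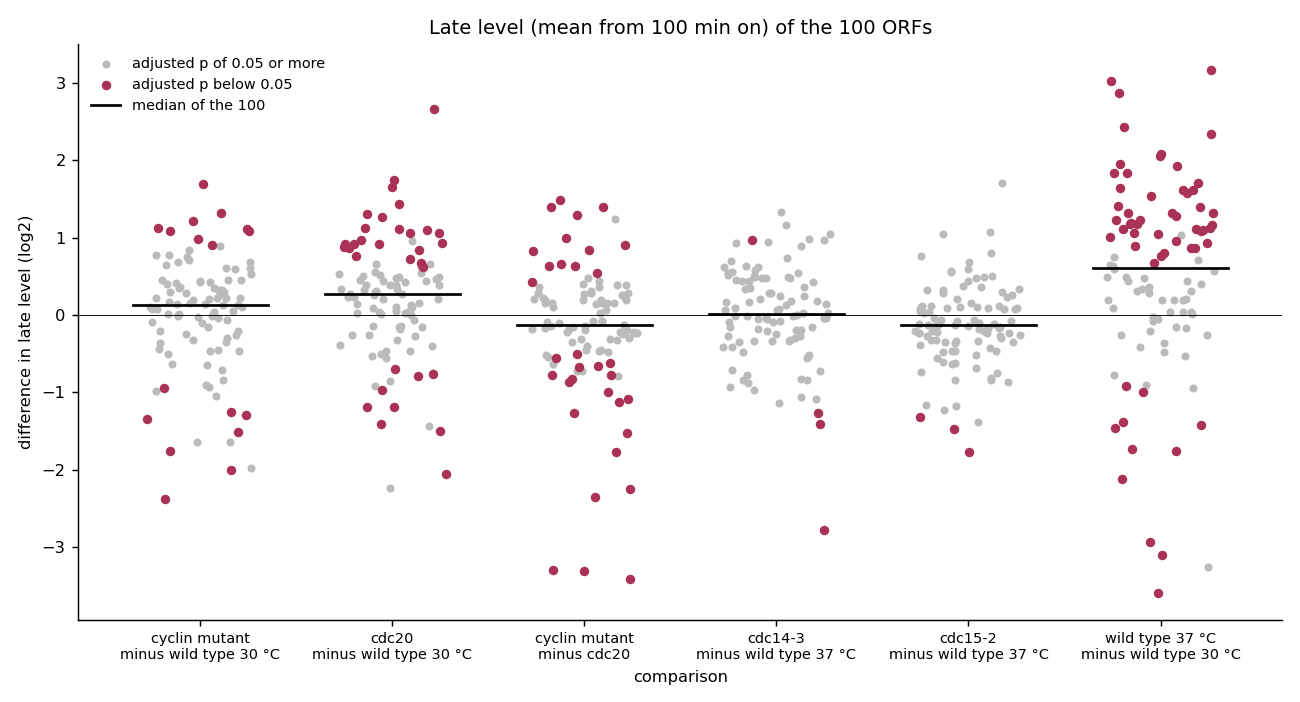
Difference in late level (log2) of the 100 ORFs in 6 comparisons. Each point is an ORF, red where the adjusted p was below 0.05, and the black line is the median of the 100. The median lay at 0.61 between wild type 37 C and wild type 30 C and between -0.13 and 0.27 in the other comparisons.

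Between the cyclin mutant and wild type 30 C, 17 of the 100 ORFs differed, against 3.76% of all genes. Of them 9 were higher and 8 lower, against 1.74% and 2.02%. The lower ones held 4 of the 7 ORFs near the CLB2 cluster, where 8 of the 18 named genes were also lower and 0 higher. YMR030W-A had late levels of 7.16 and 7.07 in the cyclin mutant, against 9.49 in wild type 30 C, a difference of -2.37 ± 0.16 (SE, limma adjusted p = 0.000747). YNL058C had 8.33 and 8.66 in the cyclin mutant, against 10.50 in wild type 30 C, a difference of -2.003 ± 0.19 (adjusted p = 0.00228). YNL146C-A and YMR001C-A differed by -1.76 ± 0.22 and -1.51 ± 0.31 (adjusted p = 0.00533 and 0.0427).

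The ORFs with the largest positive differences were YPL088W, an aryl alcohol dehydrogenase homologue, and YDR222W. YPL088W had 11.93 and 11.80 in the cyclin mutant, against 10.17 in wild type 30 C, a difference of 1.70 ± 0.16 (limma adjusted p = 0.00228). YDR222W had 12.75 and 12.94, against 11.52, a difference of 1.32 ± 0.17 (adjusted p = 0.0063). YDL124W, a reductase of alpha-keto amides, and YJL213W were higher by 1.22 ± 0.18 and 1.13 ± 0.19 (adjusted p = 0.0112 and 0.0189). The count depended on the window and the courses. It was 4 with a late window of 100 to 180 min, when 1.23% of all genes were called, and 40 with replicate 1 of wild type 30 C in the fit (15.3%). It was larger when a single course of cdc20 or replicate 2 of the cyclin mutant was left out, as was the share of all genes called. Of the 8 differences named by rule, 3 kept their call under every other setting but the values as deposited and a replicate block.

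Between cdc20 and wild type 30 C, 32 ORFs differed, against 19.2% of all genes. Of them 23 were higher and 9 lower, against 12.1% and 7.03%. With replicate 1 of wild type 30 C in the fit the count was 52, when 42.3% of all genes were called. The higher ones held 11 of the 50 ORFs near the stress list, a share close to the 23 of all 100, and 3 of the 7 near the CLB2 cluster. YLR154C-H had late levels of 10.46 and 11.14 in cdc20, against 8.14 in wild type 30 C, a difference of 2.66 ± 0.36 (limma adjusted p = 0.0075). It had 10.10 in the replicate of wild type 30 C that was left out, and with that course in the fit the difference was 1.68 and its adjusted p = 0.0533. YHR138C, similar to a proteinase B inhibitor, had 10.32 and 10.26 in cdc20, against 8.55 in wild type 30 C, a difference of 1.74 ± 0.18 (adjusted p = 0.00297).

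YNL146C-A and YPL088W were higher in cdc20 by 1.65 ± 0.22 and 1.43 ± 0.16 (limma adjusted p = 0.00661 and 0.00516). On the lower side, YLR162W had 8.34 and 8.25 in cdc20, against 10.35 in wild type 30 C, a difference of -2.05 ± 0.24 (adjusted p = 0.00565). YEL076C, YBL112C and YNL194C differed by -1.50 ± 0.26, -1.41 ± 0.37 and -1.20 ± 0.17 (adjusted p = 0.0129, 0.0375 and 0.00801). The TDH1 difference was larger in both cdc20 courses than in wild type 30 C, and its part in these late differences was not tested.

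Between the cyclin mutant and cdc20, 33 ORFs differed, close to the 36.0% of all genes that did. They were 13 higher and 20 lower in the cyclin mutant, against 15.7% and 20.3% of all genes. YNL146C-A had 7.26 and 6.82 in the cyclin mutant, against 10.52 and 10.39 in cdc20, a difference of -3.41 ± 0.18 (limma adjusted p = 5.68e-05). YNL058C, YMR030W-A and YML119W differed by -3.31 ± 0.16, -3.29 ± 0.13 and -2.35 ± 0.13 (adjusted p = 4.81e-05, 1.96e-05 and 6.63e-05), and 5 of the 7 ORFs near the CLB2 cluster were lower, as were 15 of its 18 named genes. The highest in the cyclin mutant were YDR222W, YLR162W, YJL213W and YGL081W, by 1.48 ± 0.14, 1.40 ± 0.20, 1.39 ± 0.15 and 1.30 ± 0.17 (adjusted p = 0.000551, 0.00269, 0.00103 and 0.00183).

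YNL146C-A, an ORF of 195 bases, was not near any list. In the cyclin mutant it was highest at 70 and 62 min, with 10.32 and 10.48, and lowest at 214 and 222 min, with 6.82 and 6.50. In cdc20 it never lay below 9.98 and 9.84, and in replicate 2 of wild type 30 C it spanned 8.06 to 10.23. Over the arrays that did not choose the ORFs, with courses centred, the named gene most like it was STE6, the exporter of a-factor, with r = 0.908.

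Between cdc14-3 and wild type 37 C, 4 ORFs differed, against 2.07% of all genes. Of them 1 was higher and 3 lower, against 1.19% and 0.881%. YDR034C-A had a late level of 7.31 in cdc14-3, against 10.08 in wild type 37 C, a difference of -2.77 ± 0.28 (limma adjusted p = 0.00362). Its highest sample in cdc14-3 was 8.22, below its lowest sample in wild type 37 C, 9.69. In cdc15-2 its late level was 8.70, without a call. YHR140W and YNL046W were lower in cdc14-3 by 1.41 ± 0.25 and 1.27 ± 0.21 (adjusted p = 0.0396 and 0.0318), and YML119W was higher by 0.97 ± 0.19 (adjusted p = 0.0492).

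Between cdc15-2 and wild type 37 C, 3 ORFs differed, against 1.39% of all genes. Of them 0 were higher and 3 lower, against 0.661% and 0.734%. YHR140W had 9.03 in cdc15-2, against 10.80 in wild type 37 C, a difference of -1.77 ± 0.25 (limma adjusted p = 0.0202). YOR289W had 8.21, against 9.68, a difference of -1.47 ± 0.24 (adjusted p = 0.0355), and YJL213W had 9.65, against 10.97, a difference of -1.32 ± 0.21 (adjusted p = 0.0333). The counts of both comparisons were larger when a single course of the cyclin mutant or cdc20 was left out, and so were the shares of all genes called. Those fits had fewer residual degrees of freedom. Of the differences named by rule, 2 of 4 for cdc14-3 and 1 of 3 for cdc15-2 kept their call under every other setting but the values as deposited and a replicate block. In the main fit, at an unadjusted p below 0.05, 34 and 31 of the 100 differed for cdc14-3 and cdc15-2, against 1183 and 961 of all 5449 genes.

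Between wild type 37 C and wild type 30 C, 56 ORFs differed, against 35.5% of all genes. Of them 45 were higher and 11 lower, against 21.5% and 14.1%. The median difference of the 100 was 0.61, against 0.08 over all genes. Of the 50 ORFs near the stress list 33 were higher and 2 lower, and of the 21 named genes of that list 19 were higher and 0 lower. YHR140W had a late level of 10.80 in wild type 37 C, against 7.63 in wild type 30 C, a difference of 3.16 ± 0.25 (limma adjusted p = 0.000707). YHR138C had 11.57, against 8.55, a difference of 3.02 ± 0.20 (adjusted p = 0.000584). YBR085C-A and YOR289W were higher by 2.87 ± 0.21 and 2.43 ± 0.24 (adjusted p = 0.000655 and 0.00147).

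Of the 4 called ORFs with the largest negative difference, 3 are on repeat-associated probe sets. The other, YLR162W, lies beside the ribosomal RNA gene RDN5-6. Over the arrays that did not choose the ORFs, its r with ribosomal RNA control probe sets lay between -0.139 and 0.704. Whether ribosomal RNA adds to its signal was not tested. YLR162W had 6.75 in wild type 37 C, against 10.35 in wild type 30 C, a difference of -3.60 ± 0.28 (limma adjusted p = 0.000707). YEL076C-A had 6.17, against 9.27, a difference of -3.10 ± 0.68 (adjusted p = 0.0129), YBL112C had 7.65, against 10.57, a difference of -2.93 ± 0.42 (adjusted p = 0.0036), and YEL076C had 6.30, against 8.42, a difference of -2.12 ± 0.30 (adjusted p = 0.00333). YML131W, the reductase of the stress group, was lower by 1.76 ± 0.28 (adjusted p = 0.00455). The temperature, the sorbitol and the array series differed together between these groups and cannot be told apart.

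**Figure D4:**
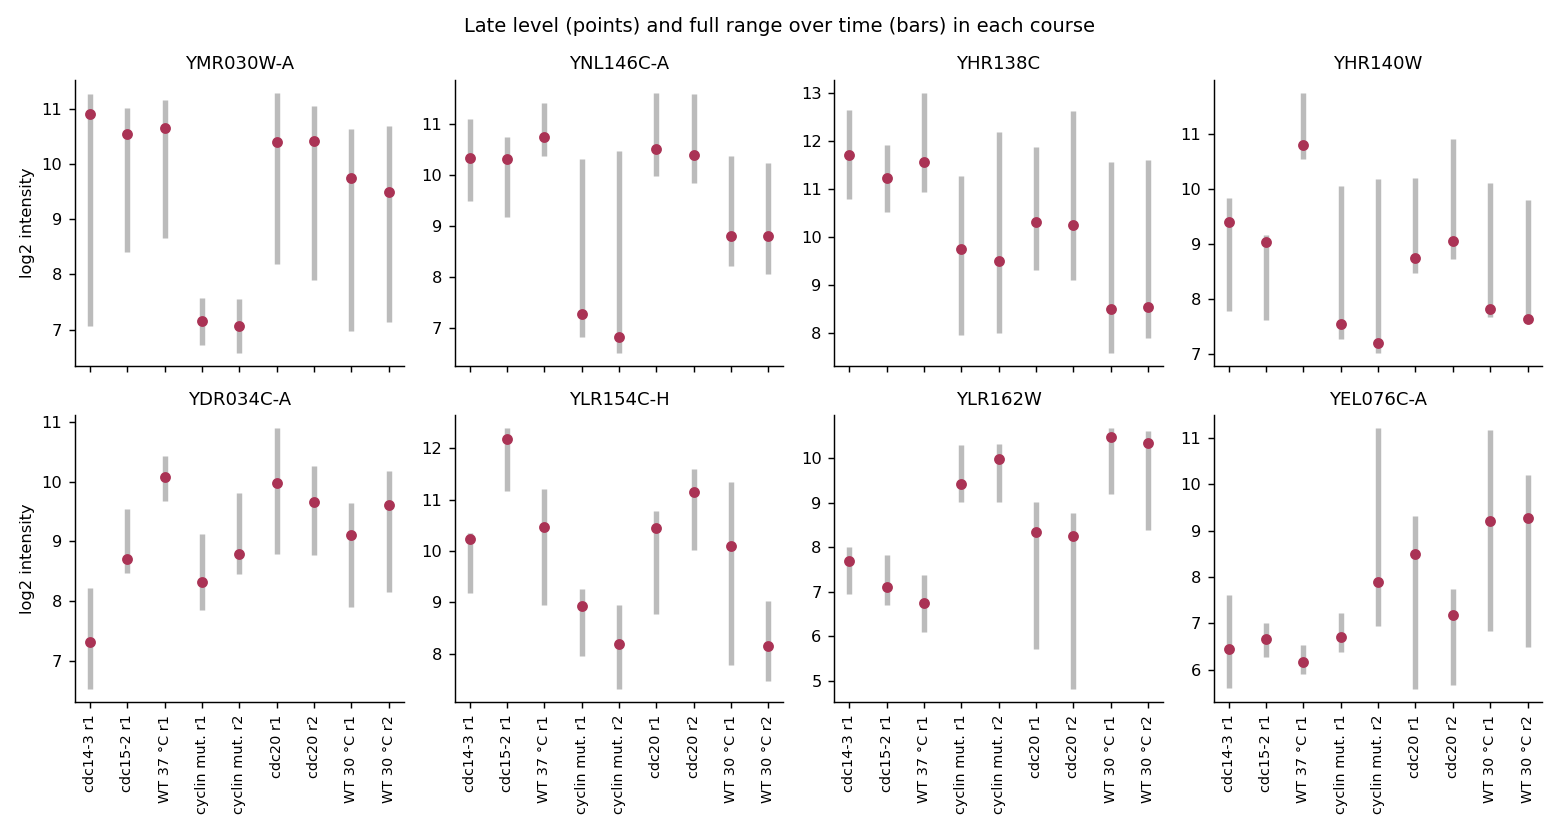
Log2 intensity of 8 ORFs in each of the 9 courses, with the late level as a point and the range from the lowest to the highest sample as a grey bar; r1 and r2 are replicates. YMR030W-A stayed below 8 in both courses of the cyclin mutant, and YHR140W was highest in wild type 37 C (WT 37 °C).

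Some ORFs differed widely between replicate courses. In the cyclin mutant 6 of the 100 differed by over 1 in late level between replicates, against 0.587% of all genes, and in cdc20 2 did, against 0.606%, and the ORFs on shared, repeat-associated probe sets were 4 of those 6 and 2 of those 2. YBL005W-A, the Ty1 Gag ORF, had a late level of 8.32 in replicate 1 and 11.88 in replicate 2 of the cyclin mutant, and of 9.52 and 8.20 in cdc20. In cdc14-3 and cdc15-2 it had 9.16 and 7.70, against 7.83 in wild type 37 C, and in wild type 30 C it had 11.72 and 11.09. YEL076C-A was at 6.70 and 7.88 in the cyclin mutant's courses and at 8.502 and 7.17 in those of cdc20, against 9.22 and 9.27 in wild type 30 C. Of the others over 1 in the cyclin mutant, YFL064C, YBL112C and YOR302W were lower in replicate 1 by 1.24, 1.01 and 1.12, and YNL134C was higher by 1.59.

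The similarity of the subtelomeric ORFs differed by pair and course. After centring on course means, r over the arrays of the 8 courses was 0.971 between YFL064C and YFL065C, 0.914 between YEL076C-A and YEL076C, and 0.704 between YFL064C and YBL112C on another chromosome. Within single courses of these 8, r between YEL076C-A and YBL112C was between 0.274 in cdc15-2 and 0.897 in replicate 1 of cdc20, and between YEL076C-A and YFL064C it was between 0.542 in wild type 37 C and 0.987 in replicate 2 of the cyclin mutant. In replicate 2 of the cyclin mutant YEL076C-A was 6.93 at 30 min and 11.21 at 94 min, while in replicate 1 it never exceeded 7.22. Its fitted range over both courses was 2.83. In replicate 2 of wild type 30 C it was highest at 102 min with 10.21 and its fitted range was 3.96 (limma, adjusted p = 0.000296). YLR154C-H of the ribosomal DNA spanned 11.18 to 12.39 in cdc15-2, 7.95 to 9.26 and 7.31 to 8.95 in the cyclin mutant, and 7.47 to 9.03 in replicate 2 of wild type 30 C.

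Some of the most variable ORFs lie beside a named gene with the same course. Over all 5017 pairs of adjacent measured protein-coding genes, the median r over these arrays was 0.112, and 6.28% of pairs exceeded 0.7. Over the 169 pairs of one of the 100 ORFs and a neighbour the median was 0.101, and 13.6% exceeded 0.7. YMR030W-A had r = 0.990 with HOF1, a cytokinesis protein, the most similar of all genes. YMR001C-A had r = 0.949 with CDC5, the mitotic polo kinase, and YDR003W-A had r = 0.950 with RCR2, again the most similar gene of all. YOR302W had r = 0.721 with CPA1, whose mRNA carries it, and that gene was the one most similar to it. Within courses this r was 0.937 in cdc14-3, 0.904 in cdc15-2, 0.959 in wild type 37 C, 0.878 and 0.889 in the cyclin mutant, 0.551 and 0.458 in cdc20, and 0.254 in replicate 2 of wild type 30 C.

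In single courses, r between YMR030W-A and HOF1 was 0.985 to 0.999 in cdc14-3, cdc15-2, wild type 37 C, cdc20 and wild type 30 C, and 0.773 and 0.732 in the cyclin mutant, where the ORF spanned less than 1 on the log2 scale. HOF1 differed between the cyclin mutant and wild type 30 C by -2.79 ± 0.18 in late level (limma adjusted p = 0.000709), beside the -2.37 of the ORF. The pair of YLR285C-A and CTS1, the chitinase that separates daughter from mother cell, behaved otherwise. Its r was 0.389 in cdc14-3 and 0.171 in cdc15-2, against 0.929 in wild type 37 C. At 30 °C the cyclin mutant had r of 0.850 and 0.470 and the cdc20 strain of -0.209 and -0.506, against 0.983 in replicate 2 of wild type 30 C. Whether probe sets of neighbours read the same transcript was not tested.

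**Figure D5:**
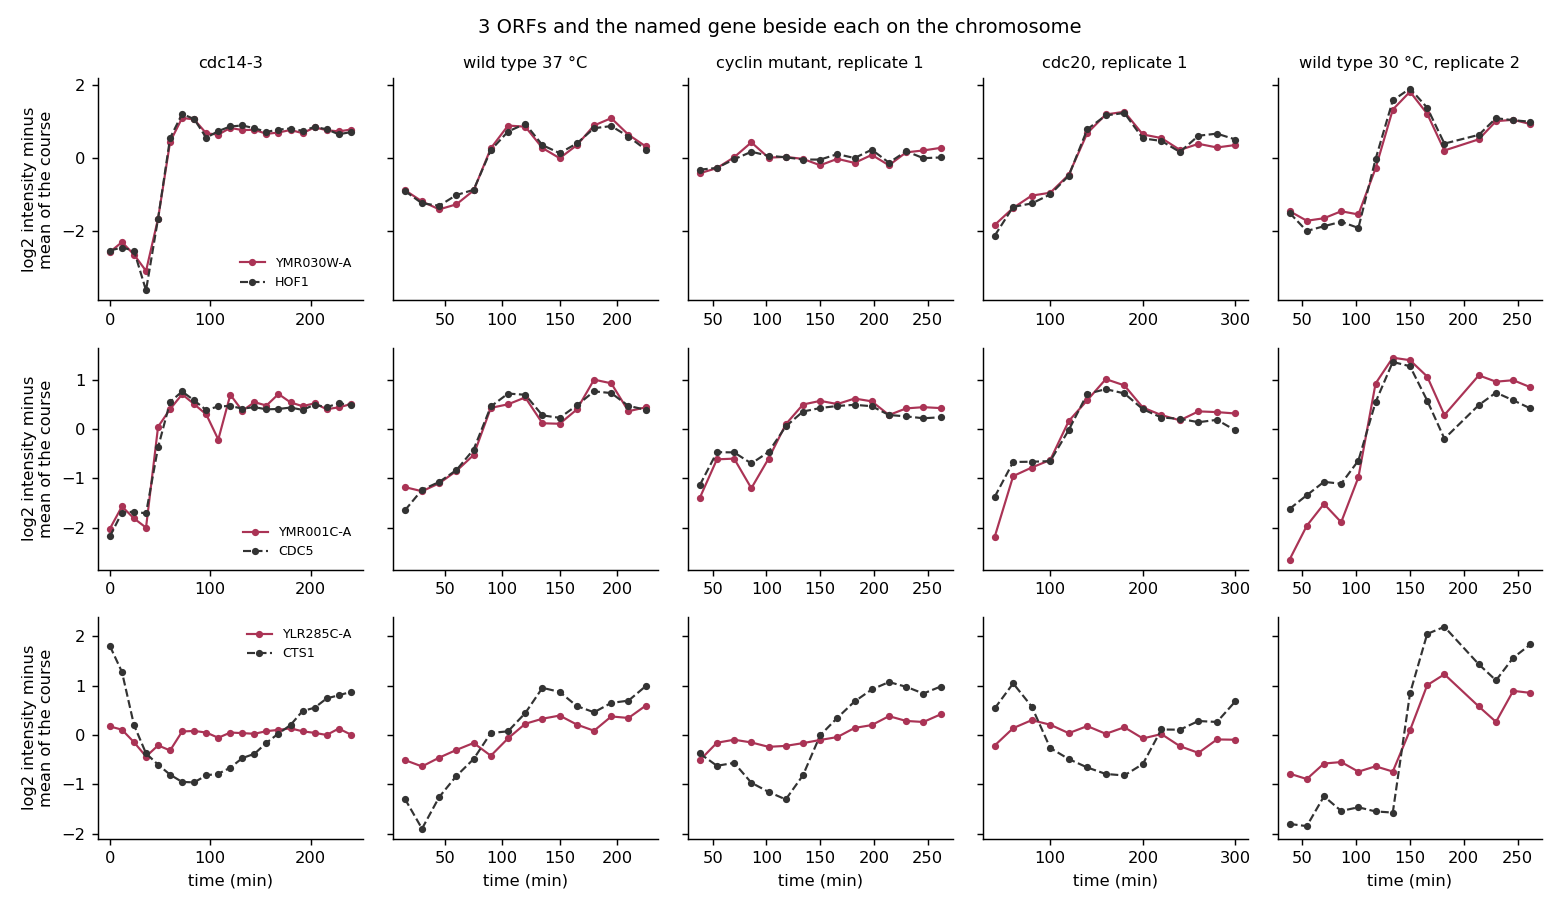
Log2 intensity minus the mean of the course against time in min, for 3 ORFs (red, solid) and the named gene beside each (black, dashed) in 5 courses. YMR001C-A ran with CDC5 in each of these courses, and YMR030W-A ran with HOF1 in all but the cyclin mutant, where neither was called as changing. YLR285C-A ran apart from CTS1 in cdc14-3 and cdc20.

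Other neighbours with a high r were YBR053C and RFS1 with 0.925, and YNL195C and YNL194C with 0.755. YBR090C overlaps NHP6B, a chromatin protein gene, on the same strand, and their r was 0.917. The paralogues YJL070C and YBR284W, similar to AMP deaminase, had r = 0.770. Named genes most like the ORFs of highest SD were ALD3 for YMR090W (r = 0.954), PHM7 for YNL195C (0.953), ALK1 for YMR001C-A (0.955), DCS2 for YMR196W (0.934), CHS2 for YNL058C (0.904), YTP1 for YOR289W (0.961), COQ4 for YBR053C (0.967), NTH1 for YHR138C (0.960) and NUD1 for YJL118W (0.947). For YLR154C-H the highest was 0.671 with ORM1, and for YEL076C-A 0.776 with CMR1.

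Profiles were set side by side between the replicates of the cyclin mutant and of cdc20, which had no part in the choice. Replicate 2 was interpolated to the times of replicate 1 within their overlap. The median r between replicate courses was then 0.912 in the cyclin mutant and 0.902 in cdc20, against 0.884 and 0.834 for all genes. It exceeded 0.7 for 78 and 85 of the 100, against 74.5% and 69.8% of all genes. The lowest values were -0.51 for YGL081W in the cyclin mutant and 0.19 for YDR524W-C in cdc20.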

How the data were processed

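RNA of 142 samples in 6 groups and 9 courses was measured on Affymetrix arrays. Each deposited value is a probe set's intensity, linear and between 22.2 and 35171; the submitters' processing notes name the affy package, and its version, the summary method and the build are not given in those notes or the labels. Columns left unused numbered 0. Log2 was taken with a pseudocount of 0. Of 5900 probe sets, 184 controls were dropped and 5498 were named for 1 gene through GEO's platform annotation, with 12 symbols updated through the R64 reference table. For genes with several probe sets the one with the highest mean was kept, which left 5449 genes. The number of arrays limits the precision.

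The members, the gene lists and the tests were chosen with earlier results of these data known. Values of replicate 2 of wild type 30 C were moved up 1 row. Time was tested with limma 3.58.1 (R 4.3.3; F-test of a spline in time with 5 degrees of freedom, each course having its own intercept), late levels with limma contrasts on course means, both with Benjamini-Hochberg adjustment over all genes, and both were tested on simulated data. The lists' nearest r used a minimum of 0.7. Named were the 12 ORFs of highest SD, the 3 on each side of the threshold, the 6 called ORFs of largest fitted range per group, the 4 of largest late difference in each direction per comparison, the ORFs of highest r per list, each ORF's most similar named gene and its neighbours; other ORFs named were chosen after their values were seen. The plan took neighbours by ORF number; the order of the reference table was used instead, since it also places genes with standard names. Figures used matplotlib 3.10.9. Sequences and product annotations were not used here, and 1 gene list, with the assignment of 3 ORFs to it, is not reported here.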

Additional observations from a re-analysis of the deposited data

How the results depend on the processing

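Of 93 counts under alternative settings, 67 lay within 1.5 times the reported count. In the time fits, quantile normalization, a spline with 4 degrees of freedom, the TDH1 difference as a covariate, a minimum mean log2 of 7 and, in the cyclin mutant and cdc20, leaving out a replicate (73 to 90 and 82 to 92 ORFs) stayed within that bound. Without the samples before 30 min 28 ORFs were called in cdc14-3 and 22 in cdc15-2, and with the values as deposited 30 in replicate 2 of wild type 30 C; that setting puts each value on its neighbour's row. Late counts moved more, in the order cyclin mutant, cdc20 and wild type 37 C minus wild type 30 C, then cdc14-3 and cdc15-2 minus wild type 37 C. With the values as deposited the comparisons with wild type 30 C gave 86, 83 and 83. With replicate 1 of wild type 30 C the counts were 40, 52, 65, 17 and 4. The common window of 100 to 180 min gave 4 for the cyclin mutant, and quantile normalization gave 2 for cdc14-3. Leaving out a course of the cyclin mutant or cdc20 gave 20 to 32, 38 to 39, 62 to 62, 21 to 22 and 10 to 17, and 33 to 40 for the cyclin mutant minus cdc20; the cause was not tested. Over all genes, the deviations of same-numbered courses from their group means correlated at -0.034 to 0.077. Such a correlation cannot show whether replicate number matters for some of the genes. With a replicate block the late counts were 3, 0, 28, 0 and 0, and 31 for the cyclin mutant minus cdc20, with 1 residual degree of freedom fewer. Of the ORFs named by rule, 2 late differences changed sign, both with the values as deposited: YHR138C in cdc20 (-0.55) and YOR289W in wild type 37 C (-3.88). Under every setting but the values as deposited and the replicate block, named late differences that kept their call numbered 3 of 8, 6 of 8, 8 of 8, 2 of 4 and 1 of 3 in the order above. For the cyclin mutant minus cdc20 they numbered 8 of 8. Named fitted ranges that kept their call numbered 4 of 6 in cdc14-3, 3 of 6 in cdc15-2 and 6 of 6 in each other group. The setting without the samples before 30 min was run in cdc14-3, cdc15-2, wild type 37 C and cdc20 only. The cyclin mutant and wild type 30 C have no samples before 30 min. Their ranges were thus not tested without the first samples, and these counts do not compare like with like.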
